A study of Mus musculus with 27 samples.

Results

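Oxygen-induced retinopathy (OIR) in mouse pups is a model of retinal vessel loss followed by vessel overgrowth, and the genes described here are those whose response to OIR differed between postnatal day 14 (p14) and p17. The members were found by one contrast across the whole table, the OIR effect at p17 minus the OIR effect at p14, where the OIR effect is the mean of log2(normalized reads + 1) in OIR mice minus that in controls of the same age. Of 40129 genes in the table, 19004 had a mean of at least 10 normalized reads and were tested, and 480 of them passed an adjusted p of 0.05 (2.53% of the genes tested). The OIR effect was higher at p17 in 435 genes (2.29%) and lower at p17 in 45 (0.237%).

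Whole retinas of wild-type C57BL/6 pups (C57BL/6J in the study's methods) were sequenced, one library per mouse, each from a single retina or both retinas of that mouse. OIR pups had been kept in high oxygen from the end of the first postnatal week for several days and then in room air until they were killed at p14 or p17, while untreated controls (nOIR) stayed in room air. The contrast used 6 controls and 6 OIR mice at p14 and 6 controls and 8 OIR mice at p17, and left out nOIR p14 mouse S4, as the study did. All mice were perfused with buffer through the heart before the eyes were taken. Each group came from few litters, the nOIR p17 controls from only a pair of them, and the labels do not tie a mouse to its litter, so mice that shared a litter were taken as independent and the p-values measure the spread between these mice only. The retina still matures at these ages in controls, so a difference between the OIR effects can come from the OIR mice, from the controls or from both.

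High oxygen stops the growth of retinal capillaries and prunes those already formed, which leaves the central retina without vessels. Back in room air this tissue becomes hypoxic and releases vascular endothelial growth factor, and endothelial tip cells then lead sprouts that revascularize the retina or leave it as tufts toward the vitreous. Pericytes, the contractile cells wrapped around capillaries, and basement membrane proteins are needed for a new vessel to become stable. In whole retina, fewer cells of a type and less RNA per cell cannot be told apart.

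Recovered totals lay between 17029536 reads (OIR p17 mouse S1) and 33593428 reads per mouse. Lens genes, which come from tissue next to the retina, varied widely within every group, and 0 of 15 such genes tested were called. The summed level of the lens list had a median of 904 normalized reads in controls and 3827 in OIR mice at p14, and of 3559 and 13229 at p17, and ranged from 183 to 53225 over all mice. With the mean of 2 lens crystallin genes (Cryaa and Cryba1) as a covariate, 462 genes were higher and 49 lower at p17. Of the retina's own marker lists, 20 rod, 15 cone, 16 bipolar cell and 16 ganglion cell genes were high enough to be tested.

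**Figure D1:**
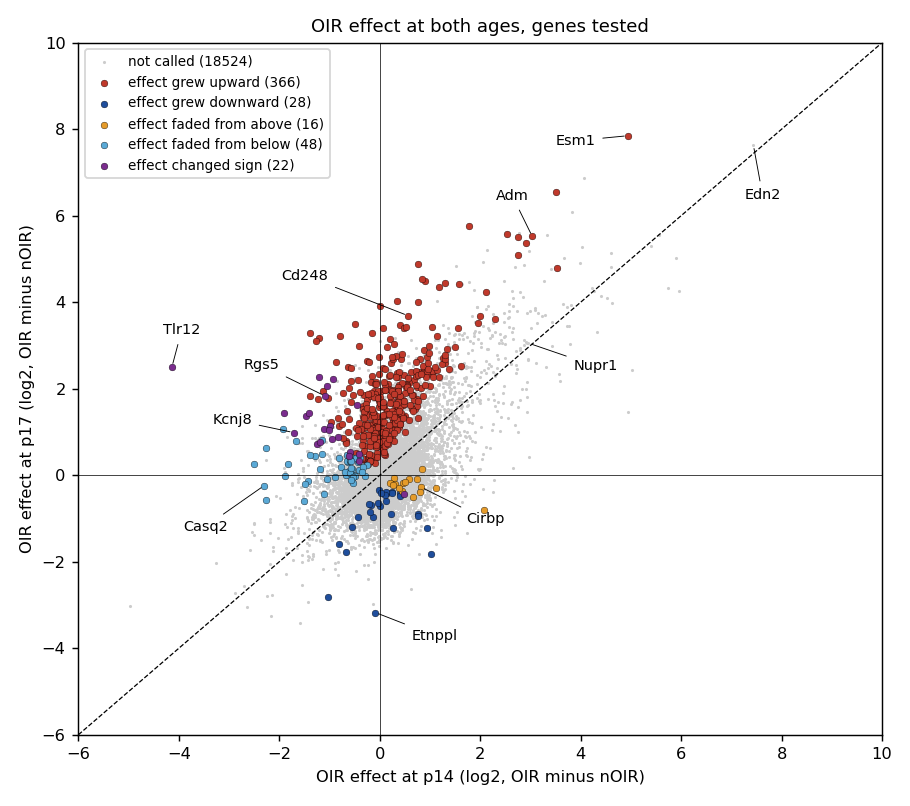
OIR effect of each of the 19004 genes tested at p14 (x axis, log2) against its OIR effect at p17 (y axis, log2), with called genes coloured by class and equal effects on the dashed line. Of the 480 called genes 435 lie above the line, and of the 22 genes that changed sign 21 lie in the upper left quadrant and 1 in the lower right.

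Most called genes had the higher effect at p17. The median difference over all genes tested was -0.02 on the log2 scale, and 47.5% of the genes had a difference above 0. Among the 480 genes called, 325 had a difference of over 1 in size. By class, the effect grew upward in 366 genes, grew downward in 28, faded from above in 16, faded from below in 48 and changed sign in 22. A gene counts as grown where its effect at p17 was the larger in size, as faded where its effect at p14 was the larger, and as changed in sign where both effects passed an adjusted p of 0.05 in opposite directions. For comparison, 4.68% of the genes tested were higher and 4.55% lower in OIR mice at p14, and 10.4% were higher and 7.89% lower at p17.

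The class that grew upward mostly held genes whose effect did not pass at p14, which does not show that they were unchanged then. At p14, 73 of these 366 genes had passed as higher in OIR mice, 293 had not passed in either direction, and 140 had a fitted effect below 0. The median effect in the class was 0.11 at p14 and 1.64 at p17 (log2), values that the class definition itself sets in part. In 314 of the 366 genes the OIR mice did not overlap the controls at p17, against 8.21% of all genes tested. At p14 this held for 44 of the 366, against 5.15%. In 154 of the 366 every OIR p17 mouse lay above every mouse of the other 3 groups, which held for 1.04% of the genes tested. These counts come from the values that chose the class, so they describe it and are not separate support.

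Of the genes in this class, Cd248, also called endosialin, is a surface glycoprotein of pericytes and stromal cells. Its normalized reads were 108 to 184 (median 147) in controls and 169.6 to 285 (median 202) in OIR mice at p14, and 69.4 to 113 (median 86.8) in controls and 729.6 to 1454 (median 1232) in OIR mice at p17. The OIR p17 mice lay above all others, and the OIR and nOIR ranges overlapped at p14. The OIR effect on Cd248 was 0.56 at p14 and 3.69 at p17 (log2), a difference of 3.13 ± 0.23 (SE, adjusted p = 1.65e-09, limma). Bgn encodes biglycan, a small proteoglycan of the extracellular matrix. It had 102 to 380.2 (median 277) normalized reads in OIR p14 and 779 to 1183 (median 1088) in OIR p17 mice, while controls had 123 to 210.4 (median 184) at p14 and 73 to 118 (median 92.3) at p17. Controls fell and OIR mice rose with age for this gene, and both changes passed the test (log2 changes of -0.92 and 2.14, adjusted p = 0.0466 and 3.67e-08, limma). Its difference was 3.06 ± 0.30 (adjusted p = 1.77e-07, limma).

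Serpine2 encodes a protease inhibitor of tissues and platelets, protease nexin. At p14 its OIR mice (938 to 1426, median 1104) and controls (1008 to 1300.0, median 1049) overlapped, whereas at p17 OIR mice had 2203 to 3766 (median 2490.0) and controls 717 to 1055 (median 867) normalized reads. The difference of 1.61 ± 0.17 had an adjusted p of 6.60e-07 (limma). Mgp encodes matrix Gla protein, an inhibitor of calcification made by vessel walls. Its OIR p17 mice reached 1296 to 3847 (median 2103) normalized reads, against 259 to 391 (median 305) in controls, and the OIR effect grew from 0.32 to 2.76 (adjusted p of the difference = 3.28e-06, limma). Also among the first 12 named genes of this class by adjusted p were Trp53i11, Mxra8, Cnn2, which encodes a calponin of the actin cytoskeleton, and Rasl12, with differences of 1.68, 1.72, 2.38 and 2.08 (log2).

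Most genes of endothelial tip cells and sprouts had a larger OIR effect at p17. Of 20 list members tested, 14 had a higher OIR effect at p17 and 0 a lower one, with a median difference of 1.60 against -0.02 over all genes. The lists and the members were chosen with earlier results of these data known, so the counts describe the lists and are not independent evidence of their direction. At p14, 13 of the 20 were already higher in OIR mice, and at p17 all 20 were. The count lay between 10 and 17 under the alternatives, with 10 where every gene above 0 was tested and 17 with the leading within-group component as a covariate.

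Apln encodes apelin, a secreted peptide of growing vessels and a marker of tip cells. OIR mice had 631 to 1175 (median 745) normalized reads at p14 and 1841 to 4991 (median 3981) at p17, and controls 208 to 483 (median 263) and 125 to 237 (median 160.0). OIR mice were above all controls at both ages, with effects of 1.57 at p14 and 4.43 at p17 and a difference of 2.85 ± 0.31 (log2, adjusted p = 9.89e-07, limma). The receptor gene Aplnr was not higher at p14 (effect -0.34) and differed by 1.93 (adjusted p = 1.05e-04, limma). Angpt2 encodes angiopoietin-2, which loosens the contact between endothelium and pericytes. It had 411 to 666 (median 472) normalized reads in OIR p14 and 1039 to 2289 (median 1602) in OIR p17 mice, with 225 to 332 (median 259) and 178 to 334 (median 212) in controls. Its effect grew from 0.88 to 2.88 (adjusted p of the difference = 2.03e-06, limma). Cd34, a sialomucin of endothelial and progenitor cells, overlapped controls at p14 (681 to 1152, median 909 in OIR, 577 to 791, median 738 in nOIR mice) and did not at p17 (1971 to 2991, median 2309 in OIR, 469 to 639.5, median 546 in nOIR mice).

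Mcam, which encodes the adhesion molecule CD146 of endothelium and pericytes, was above all controls at both ages and differed by 1.40 ± 0.17 (log2, adjusted p = 5.42e-06, limma). Esm1 encodes endocan, a tip cell proteoglycan induced by vascular endothelial growth factor. Its controls held at most 6.62 normalized reads at p17 and 4.44 at p14, and OIR mice held 18.2 to 140.3 (median 72.5) at p14 and 278 to 753 (median 597) at p17. With controls near 0 the size of the difference (2.91, adjusted p = 0.0299, limma) depends on the pseudocount, and it did not pass in 7 of 16 other fits, edgeR and DESeq2 among them, with adjusted p up to 0.332. Igfbp3 was the member of the tip cell list with a fitted difference below 0 (-1.05, 95% interval -2.21 to 0.12, adjusted p = 0.466, limma). Its effect was 2.79 at p14 and 1.74 at p17.

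Within the ligands and receptors of vessel growth, 4 of 14 genes tested had a higher effect at p17 and 0 a lower one (median difference 0.59). Vegfa, the main hypoxia-induced growth factor for endothelium, had 4151 to 8754 (median 5914) normalized reads in OIR p14 mice and 6540.3 to 11093 (median 9998) in OIR p17 mice. Controls held 3558 to 4042 (median 3750.5) at p14 and 3203 to 3489.6 (median 3334) at p17, so OIR mice lay above controls at both ages. The effect on Vegfa was 0.66 at p14 and 1.49 at p17, with a difference of 0.83 ± 0.18 (log2, adjusted p = 0.00963, limma). Nrp1 encodes neuropilin-1, a co-receptor for this factor, and differed by 0.91 ± 0.13 (adjusted p = 6.33e-05, limma). The receptor genes Kdr and Flt1 did not pass, with differences of 0.31 (95% interval -0.11 to 0.72) and 0.23 (-0.04 to 0.49).

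Of the general endothelial genes few were higher at p14. Of 20 tested, 14 had a higher effect at p17 and 0 a lower one, with a median effect of -0.11 at p14 and 1.35 at p17. In the younger mice, 2 of the 20 were higher and 3 lower with OIR. The count of 14 was found in every alternative and in every fit that left out a mouse. Emcn encodes endomucin, a sialoprotein of capillary and venous endothelium. It had 119 to 223 (median 137) and 72.5 to 178 (median 157) normalized reads in nOIR and OIR mice at p14, and 120.0 to 188 (median 138) and 409 to 710.3 (median 539) at p17. Eng encodes endoglin, a co-receptor for transforming growth factor beta in proliferating endothelium. Its ranges overlapped at p14 (369 to 530.2, median 426 in nOIR, 354 to 682, median 416 in OIR mice) and were apart at p17 (303 to 463, median 306 and 768 to 1742, median 1400.5). The differences were 2.06 ± 0.26 for Emcn and 1.93 ± 0.23 for Eng (adjusted p = 1.33e-05 and 4.17e-06, limma). Erg, a transcription factor of endothelium, had the highest fitted difference of the list (2.36), and Podxl had the lowest (0.12).

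Of the 22 genes that changed sign, 6 came from the pericyte list, and 21 ran from below controls at p14 to above controls at p17. The class held 0.116% of the genes tested. All 22 changed with age in OIR mice and in 0 of them did the change in controls pass (adjusted p of 0.05). The median effect in the class was -1.03 at p14 and 1.05 at p17. The OIR mice did not overlap the controls in 12 of the 22 genes at p14, against 5.15% of all genes tested, and in 12 at p17, against 8.21%. The class requires both effects to pass, so its definition sets these counts in part.

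Rgs5 encodes a regulator of G protein signalling and is a defining gene of pericytes. Its normalized reads were 1579.6 to 2507 (median 2330.2) in nOIR p14 and 721 to 1530.1 (median 997) in OIR p14 mice. At p17 they were 1587 to 2033 (median 1868) in nOIR and 5096 to 8296 (median 6235) in OIR mice. Every OIR mouse was below every control at p14 and above every control at p17. By fit, Rgs5 was at 0.467 times the control level at p14 and at 3.57 times at p17, a difference of 2.94 ± 0.21 (log2, adjusted p = 1.57e-09, limma). Controls changed by -0.24 between the ages and OIR mice by 2.69.

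Kcnj8 and Abcc9 encode the pore and the sulfonylurea subunit of the potassium channel by which pericytes respond to cell metabolism, and both changed sign. Kcnj8 had 48.3 to 135 (median 81.2) normalized reads in OIR p14 and 378 to 735 (median 517) in OIR p17 mice, while controls held 239.7 to 349 (median 272) and 233 to 305 (median 253). Abcc9 had 64.4 to 132 (median 98.6) and 473 to 1105 (median 607) in OIR mice and 207 to 352 (median 266) and 184 to 305 (median 254) in controls at p14 and p17. For neither subunit did OIR mice overlap controls at either age. The difference was 2.70 ± 0.26 for Kcnj8 and 2.84 ± 0.26 for Abcc9 (adjusted p = 1.71e-07 and 8.80e-08, limma).

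**Figure D2:**
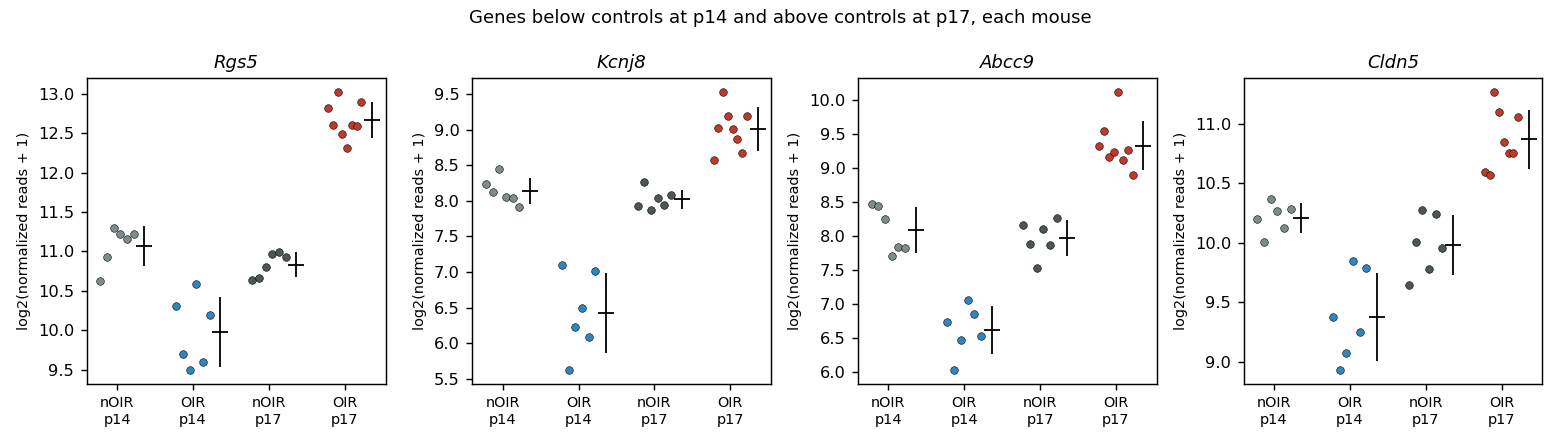
Normalized reads of Rgs5, Kcnj8, Abcc9 and Cldn5 on a log2 scale (1 added), 1 point per mouse, with the mean and SD of each group as a bar beside the points. In each panel the OIR p14 mice lie below the nOIR p14 mice and the OIR p17 mice lie above all other mice.

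Ednra, the receptor for endothelin-1 on pericytes and smooth muscle, went from an effect of -0.92 to 2.23. OIR mice held 48.1 to 124 (median 82.4) normalized reads at p14 and 373 to 667 (median 506) at p17, and the difference of 3.15 ± 0.25 had an adjusted p of 5.80e-09 (limma). Higd1b, a small mitochondrial protein found in pericytes, had 21.2 to 68.3 (median 46.6) and 246 to 667 (median 364) in OIR mice and 71.9 to 131 (median 104) and 66.8 to 98.1 (median 77.9) in controls, and differed by 3.48 ± 0.33. Art3, an ADP-ribosyltransferase family member, was the other pericyte gene of the class, with effects of -1.25 and 0.73.

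The class also held matrix and signalling genes of stromal cells. Aspn, a small proteoglycan, had effects of -1.90 at p14 and 1.43 at p17, and Ccdc80, a secreted matrix protein, -1.06 and 2.07. Tgfbr2, the type II receptor for transforming growth factor beta, had 130.1 to 354 (median 184) normalized reads in OIR p14 mice, against 302 to 579 (median 388) in controls, and 429.6 to 738 (median 613) in OIR p17 mice, against 216 to 333 (median 322). Tlr12, a toll-like receptor gene, had the largest fitted difference of the class (6.64) at low levels. Its OIR p14 mice held 0 to 3.03 (median 0) normalized reads, so that the size of the difference depends on the pseudocount.

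From the endothelial list, Tie1 and Cldn5 changed sign. Cldn5 encodes claudin-5, the main tight junction protein of the inner blood-retina barrier. OIR mice held 487 to 919.8 (median 635) normalized reads at p14, below all controls (1029 to 1324, median 1203), and 1516 to 2461 (median 1787) at p17, above all controls (799 to 1241, median 1009). The difference was 1.72 ± 0.20 (adjusted p = 3.28e-06, limma). Tie1, an orphan receptor of the angiopoietin pathway, had effects of -0.46 and 1.62, and its ranges overlapped at p14. Dcdc2a, a microtubule-binding doublecortin family gene, ran the other way and was the only one of the 22 to do so. It was above all controls at p14 (effect 0.49) and lower at p17 (effect -0.43), with a difference of -0.92 ± 0.16 (adjusted p = 8.77e-04, limma).

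The pericyte list as a whole had 11 of 20 genes with a higher effect at p17 and 0 with a lower one, and a median difference of 1.94. At p14, 8 of the 20 were lower and 2 higher in OIR mice, and at p17 1 was lower and 11 higher. Beside the 6 that changed sign, 5 grew upward, namely Cd248, Cspg4, Notch3, Pdgfrb and Ndufa4l2. Pdgfrb, the receptor that holds pericytes to endothelium, had an effect of -0.32 at p14 and 1.32 at p17 (difference 1.64, adjusted p = 1.61e-04, limma). Not all members took this course. Atp13a5, a cation-transporting ATPase gene of brain and retinal pericytes, held 6.05 to 26.4 (median 15.8) normalized reads in OIR p14 and 0.992 to 40.9 (median 16.7) in OIR p17 mice, against 78.1 to 138 (median 107) and 75.1 to 134 (median 106) in controls. Every OIR mouse lay below every control at both ages, and the difference was 0.15 (95% interval -1.28 to 1.59).

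Barrier genes were likewise divided. Of 20 transporter and junction genes of barrier endothelium, 6 had a higher effect at p17 and 0 a lower one (median difference 0.46). In OIR mice 8 were lower and 1 higher at p14, and 4 were lower and 8 higher at p17. Itm2a, a membrane protein of barrier endothelium, was lower at p14 (effect -0.69) and had an effect of 0.08 at p17, with a difference of 0.77 (adjusted p = 0.0194, limma). Slco1c1, a thyroid hormone transporter of barrier endothelium, stayed below all controls at both ages, with 81.6 to 192 (median 117) and 102 to 271 (median 181) normalized reads in OIR mice and 224 to 473 (median 394) and 290.2 to 592 (median 420.3) in controls. Its difference did not pass (0.34, 95% interval -0.37 to 1.04). The transporter gene Slco1a4 likewise had effects of -1.86 and -1.79.

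Contractile genes of smooth muscle had 6 of 15 members with a higher effect at p17 and 0 with a lower one (median difference 1.01). Des encodes desmin, an intermediate filament of muscle and pericytes. It had 64.5 to 125 (median 90.6) normalized reads in OIR p14 and 227 to 714 (median 458) in OIR p17 mice, against 30.7 to 67.8 (median 43.7) and 26.9 to 62.3 (median 40.7) in controls, and a difference of 2.39 ± 0.34 (log2, adjusted p = 6.24e-05, limma). Myl9, a regulatory light chain of myosin, overlapped controls at p14 (effect 0.10) and lay above all of them at p17 (effect 1.97). Acta2, smooth muscle actin, was above all controls at both ages, and its effect grew from 2.00 to 3.68 (adjusted p of the difference = 0.00227, limma). In the list for striated muscle and sclera, tissue that could enter with the retina, 0 of 8 genes tested passed. Of the 8, 7 had a difference above 0, and the list's median difference was 0.91, near that of the contractile genes. The 8 include Pax6, which marks neither tissue, and Ckm, which is also in the contractile list. The summed level of 7 striated muscle genes lay between 249 and 545 normalized reads in 24 of the 26 mice, whereas OIR p17 mouse S2 had 6186 and OIR p17 mouse S7 had 1259. Without these 2 mice, a choice made after seeing the data, the median difference was 0.01 for the muscle and sclera list and 0.97 for the contractile list, of which 5 were then called.

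Among collagens, 4 of 20 had a higher effect at p17 and 0 a lower one, and among other matrix genes 10 of 29 and 0 (median differences 0.45 and 0.69). Col4a1 and Col4a2 encode the chains of basement membrane collagen. Col4a1 had 3059 to 8995 (median 4565) normalized reads in OIR p14 and 7585 to 16981 (median 13881) in OIR p17 mice, and controls 2101 to 3652 (median 2377) and 1745 to 2307 (median 1913). Its difference was 1.79 ± 0.28, and that of Col4a2 1.59 ± 0.30 (adjusted p = 1.75e-04 and 0.00216, limma). Col3a1, a collagen of connective tissue fibrils, did not pass at p14 (effect 0.07, adjusted p = 0.929, limma) and was above all controls at p17 (effect 2.48). Serpinh1 encodes HSP47, the chaperone that folds collagen. Controls had 969.8 to 1330.3 (median 1145) normalized reads at p14 and 489 to 784 (median 626) at p17, while OIR mice had 1198 to 1962 (median 1426) and 2254 to 5127 (median 3386). The fall in controls and the rise in OIR mice both passed (adjusted p = 0.0164 and 1.35e-05, limma), and the difference was 2.02 ± 0.24.

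**Figure D3:**
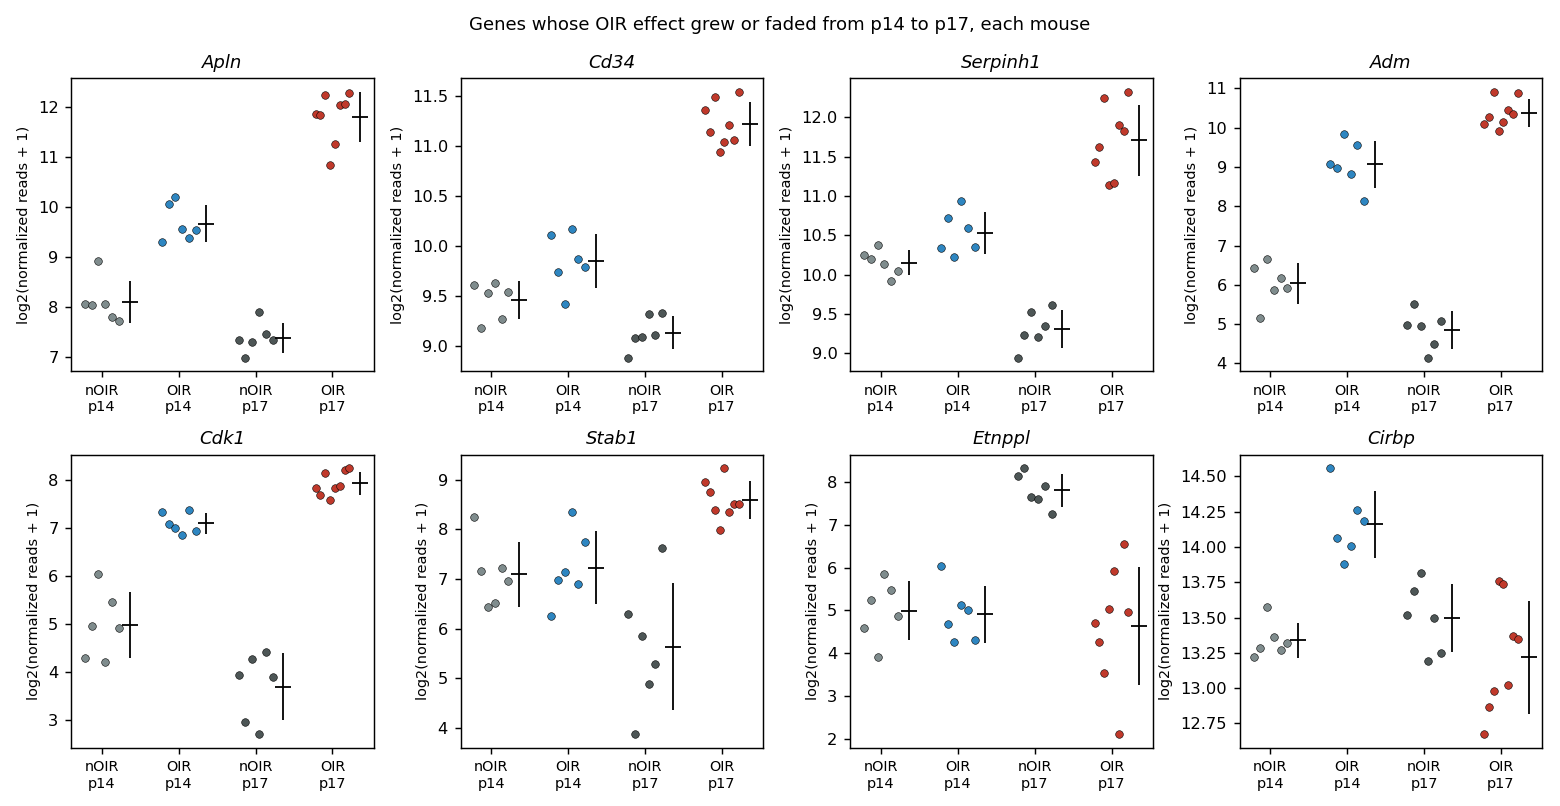
Normalized reads of 8 genes on a log2 scale (1 added), 1 point per mouse, with the mean and SD of each group as a bar beside the points. The OIR p17 mice lie above all others for Apln, Cd34, Serpinh1, Adm and Cdk1, the nOIR p17 mice lie above all others for Etnppl, and the OIR p14 mice lie above all others for Cirbp.

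Mitosis genes were higher in OIR mice at both ages in most of the list, and for some of them controls fell with age. Of 32 tested, 7 had a higher effect at p17 and 0 a lower one (median difference 1.15). At p14, 21 of the 32 were higher in OIR mice, and at p17 30. Cdk1, the kinase that drives entry into mitosis, had 114 to 165 (median 131) normalized reads in OIR p14 and 191 to 302 (median 231) in OIR p17 mice. Controls held 17.5 to 64.7 (median 29.7) at p14 and 5.51 to 20.4 (median 14.1) at p17, and the change with age passed in both arms (adjusted p = 0.0288 in nOIR and 0.0475 in OIR mice, limma). The difference of Cdk1 was 2.11 ± 0.39 (adjusted p = 0.00147, limma). For Top2a, the topoisomerase of dividing cells, the change passed in controls (log2 change -2.04, adjusted p = 0.0288) and not in OIR mice (1.00, adjusted p = 0.154, limma). Its controls at p17 held 0 to 12.6 (median 2.5) normalized reads and OIR mice 179 to 383 (median 286). Of 25 genes of DNA replication, 1 (Cdc6) had a higher effect at p17, a call that edgeR did not make.

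The letters before the transcription start are shown for 3 of the 7 mitosis genes called. The cell cycle genes homology region (TTTGAA) and the CCAAT box (CCAAT) are in capitals on either strand. Promoters are from RefSeq (GRCm38.p6), 250 bases up to the start, 5′ to 3′ on the strand of the gene, for Cdk1 at chr10:69352913-69353162 (minus strand), Top2a at chr11:99024190-99024439 (minus strand) and Ube2c at chr2:164769679-164769928 (plus strand).
Cdk1: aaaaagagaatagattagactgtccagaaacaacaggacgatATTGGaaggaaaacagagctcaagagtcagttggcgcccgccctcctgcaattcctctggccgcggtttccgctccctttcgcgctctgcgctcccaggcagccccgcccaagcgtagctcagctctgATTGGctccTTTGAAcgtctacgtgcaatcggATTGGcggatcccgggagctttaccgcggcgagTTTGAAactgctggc
Top2a: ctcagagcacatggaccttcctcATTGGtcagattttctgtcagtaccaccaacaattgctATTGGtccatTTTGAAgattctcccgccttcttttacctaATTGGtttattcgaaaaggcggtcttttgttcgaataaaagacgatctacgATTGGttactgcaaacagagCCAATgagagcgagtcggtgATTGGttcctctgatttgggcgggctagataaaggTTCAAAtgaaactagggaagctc
Ube2c: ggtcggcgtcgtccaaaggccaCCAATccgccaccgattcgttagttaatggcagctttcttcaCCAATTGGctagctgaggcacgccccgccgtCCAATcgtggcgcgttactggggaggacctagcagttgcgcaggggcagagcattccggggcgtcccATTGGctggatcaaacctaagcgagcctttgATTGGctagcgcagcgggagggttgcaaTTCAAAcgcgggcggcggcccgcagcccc
In these stretches TTTGAA stands 2 times in Cdk1, 2 times in Top2a and 1 time in Ube2c, and CCAAT 3, 6 and 6 times, with 1 overlapping pair on opposite strands in Ube2c. Over windows of 300 bases that include the start, 20 of 27 mitosis genes with a promoter sequence (74.1%) held TTTGAA and 21 (77.8%) held CCAAT on either strand, against 11.9% and 38.3% of the 12764 genes tested that have one, and 18.1% and 37.9% of all 27025 promoters. Of the 6 called mitosis genes with a sequence, 5 (83.3%) held TTTGAA and 5 held CCAAT, near the shares of the whole list. Whether the letters bear on the difference was not tested. Among 31 genes of glycolysis and the hypoxia response with a promoter sequence, 58.1% held ACGTG, the core of the hypoxia response element, against 24.5% of those tested and 19.7% of all promoters. A match is a run of letters and not a shown binding site. For the class that grew upward, 261 of 366 genes had a promoter sequence, and of these 21.5% held ACGTG, 14.9% TTTGAA and 34.9% CCAAT. Under 80% of this class was matched, as of the genes tested (12764 of 19004). The shares set against the genes tested are therefore description only, and no conclusion is drawn from any of them.

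**Figure D4:**
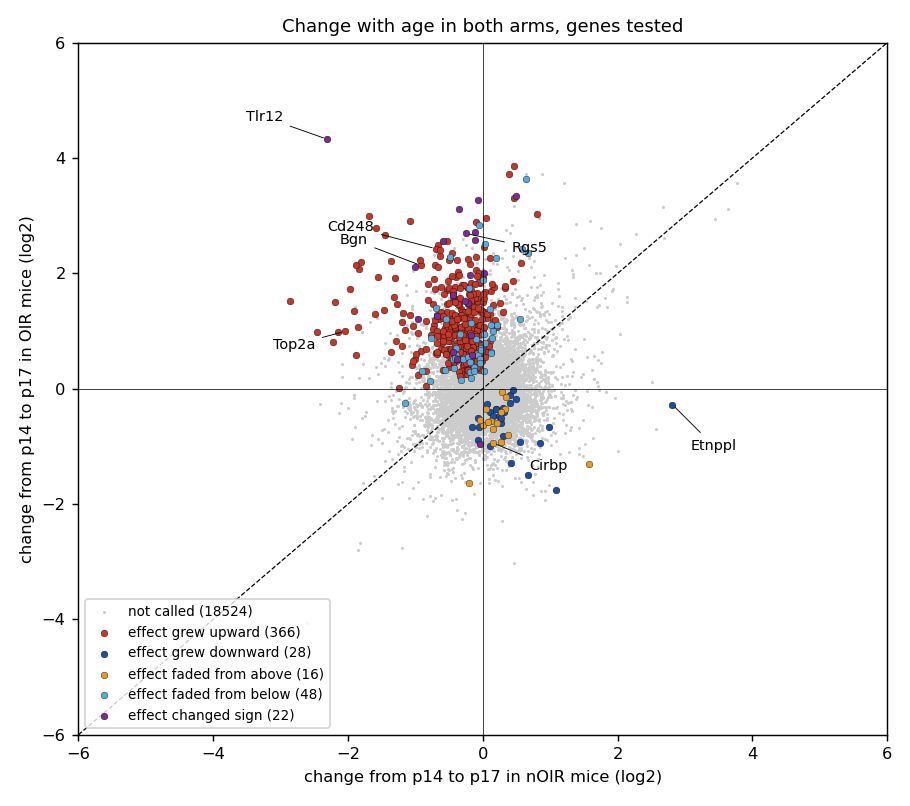
Change from p14 to p17 of each gene tested in nOIR mice (x axis, log2) against its change in OIR mice (y axis, log2), with called genes coloured by class and equal changes on the dashed line. The 417 called genes whose change passed only in OIR mice spread along the y axis, while Top2a and Etnppl lie away from 0 on the x axis.

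Across all 480 genes, the change with age passed in OIR mice and not in controls for 417. Of the 366 that grew upward this held for 323. Only controls passed for 9 of the 366, both arms for 7 and neither for 27. Over all genes tested, 6.28% rose and 2.78% fell with age in OIR mice, and 0.258% rose and 0.279% fell in controls. In the class that grew upward, the median change was 1.08 in OIR mice and -0.30 in controls (log2).

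Hypoxia targets were called in a smaller share than pericyte, tip cell or endothelial genes. Of 36 genes of glycolysis and the response to hypoxia-inducible factor, 17 were higher in OIR mice at p14 and 25 at p17, while 3 had a higher effect at p17 and 0 a lower one (median difference 0.16). The 3 were Adm, Ndufa4l2 and Vegfa. Over all genes tested, 2.29% had a higher effect at p17. The difference was above 0 in 31 of the 36 genes, against 47.5% of all genes tested. Adm encodes adrenomedullin, a peptide that dilates vessels and acts on endothelium. It had 34.7 to 100.2 (median 65.4) and 280.0 to 913 (median 522) normalized reads in nOIR and OIR mice at p14, and 16.5 to 44.2 (median 30.2) and 958 to 1932 (median 1276) at p17. Its effect went from 3.03 to 5.52, with a difference of 2.49 ± 0.36 (log2, adjusted p = 8.58e-05, limma). Adm fell in controls and rose in OIR mice, and both changes passed (adjusted p = 0.0315 and 7.06e-04, limma). Egln3, a prolyl hydroxylase that is itself a target of hypoxia-inducible factor, had effects of 2.64 and 3.32, and its difference did not pass (0.68, 95% interval -0.05 to 1.42).

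**Figure D5:**
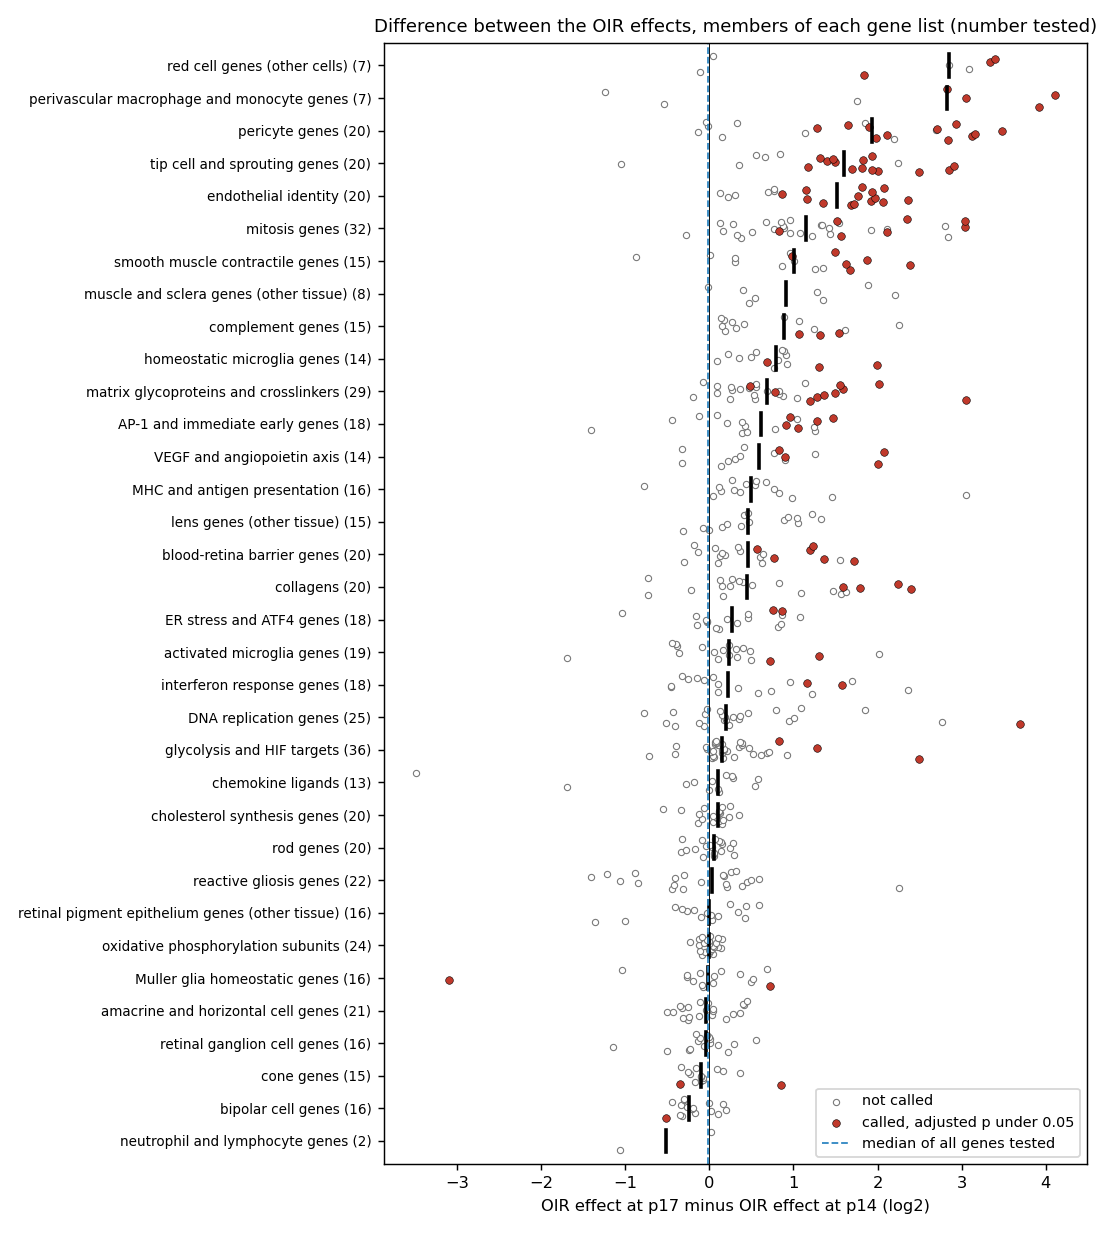
OIR effect at p17 minus OIR effect at p14 (x axis, log2) for each tested member of the 34 gene lists, with called genes filled, list medians as black bars and the median of all genes tested as a dashed line. Pericyte, tip cell and endothelial members lie mostly above 0. The gliosis, rod, amacrine and horizontal, and ganglion cell lists are centred near 0. The bipolar cell list has a median of -0.24, with 4 of 16 members above 0, and the cone list a median of -0.10.

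Genes of macrophages at vessels were also called. Of 7 tested genes of perivascular macrophages and monocytes, 4 had a higher effect at p17 and 0 a lower one. The 7 others of the list, Cd163, Folr2 and Ccr2 among them, fell below the level for testing. That level was a mean over all mice, so genes high in OIR p17 mice could enter through that group. The count among those tested is therefore a description and not evidence of a direction. The count was 2 with edgeR, and the summed level of all 14 genes overlapped between the groups, with 970 to 1405 normalized reads in OIR p17 mice and 638 to 1060 in OIR p14 mice. Stab1, a scavenger receptor of such macrophages and of sinusoidal endothelium, had 86 to 304 (median 133) and 75.1 to 327 (median 133) normalized reads in nOIR and OIR mice at p14 and 13.6 to 195 (median 47.3) and 253 to 603 (median 366) at p17. Its difference was 2.82 ± 0.58 (adjusted p = 0.00455, limma). F13a1, a clotting factor subunit made by macrophages, had an effect of 0.0042 at p14 and held 30.2 to 115 (median 70.5) normalized reads in OIR p17 mice against 0 to 12.1 (median 6.11) in controls. Pf4, platelet factor 4, had 32.9 to 92.3 (median 56.8) against 0 to 5.76 (median 0.995) and lost its call with edgeR (adjusted p = 0.0802, the highest of its alternatives). Mrc1, the mannose receptor, had a difference of 1.76 that did not pass (adjusted p = 0.631, limma), and the difference of Lyve1, a hyaluronan receptor of macrophages and lymphatic vessels, was -0.54.

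Some microglia genes were called as well. Their shares are not ranked against that of the macrophage genes, whose number tested depended on the filter. Of 14 homeostatic genes 3 and of 19 activated genes 2 (Cd68 and Apoe) had a higher effect at p17, against 2.29% of all genes tested. In either list 0 had a lower one. The 2 activated genes lost their calls where every gene above 0 was tested. Cx3cr1, the fractalkine receptor of microglia, had 307 to 418 (median 357) normalized reads at p14 and 184 to 256 (median 222) at p17 in controls, a fall that passed, and 316 to 637 (median 399) and 563 to 800.2 (median 673) in OIR mice, a rise that passed. The difference was 1.31 ± 0.20 (adjusted p = 1.71e-04, limma). The chains of complement C1q are made by microglia and macrophages, and their genes C1qa, C1qb and C1qc differed by 1.31, 1.06 and 1.54 (adjusted p = 0.00367, 0.0103 and 6.50e-04, limma). C3, the central complement component, was high at both ages. Its effect was 2.21 at p14 and 2.53 at p17, and the 95% interval of the difference was -0.29 to 0.93.

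Of 7 red cell genes tested, 3 had a higher effect at p17 and 0 a lower one. Hbb-bs, a beta globin gene, had 109 to 469.9 (median 192) normalized reads in OIR p14 and 714 to 10593 (median 2339) in OIR p17 mice, and controls 28.3 to 832 (median 235) and 86.5 to 671 (median 260.1). Its OIR p17 mice spread over more than 1 order of magnitude, and the call (adjusted p = 0.0407, limma) did not hold in 4 of 16 other fits nor in 15 of the 26 fits that left out a mouse. The count of 3 lay between 0 and 5, with 5 in edgeR, DESeq2 or without nOIR p14 mouse S2. It was 0 where every gene above 0 was tested, without OIR p17 mice S2 and S7 together, which had the highest summed level of striated muscle genes, and without any of nOIR p14 mice S1 and S6, nOIR p17 mice S2 and S4, OIR p14 mouse S6 or OIR p17 mouse S3. The summed level of the red cell list had a median of 3941 normalized reads in OIR p14 and 7299 in OIR p17 mice, and its part in the rise of vessel genes was not tested. Of immediate early genes, 5 of 18 had a higher effect at p17, among them Junb (1.28) and Myc (1.47, adjusted p = 0.0222 and 0.0173, limma), and without OIR p17 mice S2 and S7 the count was 2 and Junb did not pass.

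A few large effects stayed alike at both ages. In all, 126 genes were higher in OIR mice by over 2 on the log2 scale at both ages, of which 10 had a higher effect at p17 and 0 a lower one. For 9 genes (0.0474% of those tested) with an effect of over 2 in size at both ages, the 95% interval of the difference lay within -1 to 1, so their effects differed by less than 1. Nupr1, a stress-induced nuclear protein, had 322 to 1203 (median 665) and 534 to 1739 (median 1059) normalized reads in OIR mice at p14 and p17 and 55.9 to 148 (median 83) and 93.7 to 161 (median 126) in controls. Its difference was 0.10 (95% interval -0.65 to 0.86). Gadd45b, a growth arrest gene, and C3 were among the 9, and Cck was the only one lowered. Cck encodes the neuropeptide cholecystokinin, and its effect was -2.19 at p14 and -2.05 at p17.

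Of 22 tested genes of reactive gliosis, 21 were higher in OIR mice at each age and 0 passed the difference between the ages (median difference 0.03, limma). In this list 0 genes passed with edgeR and 0 with DESeq2, and no alternative called more than 1. The count of gliosis genes with an unadjusted p under 0.05 was 4, against 12.4% of all genes tested. With 2.53% of all genes called, a count of 0 of 22 does not set the list apart. Gfap, the filament of activated Müller glia and astrocytes, had 2132 to 7734 (median 6408) normalized reads in OIR p14 and 2164 to 8794 (median 6808) in OIR p17 mice, against 403 to 1174 (median 492) and 339 to 799.7 (median 422) in controls. The 95% interval of its difference was wide (-0.45 to 1.34), so the data do not show that its effect stayed the same. Edn2, endothelin-2 of stressed photoreceptors, had effects of 7.44 and 7.64 over controls of at most 14.2 normalized reads at p14.

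No chemokine gene passed, 0 of 13 with limma, edgeR or DESeq2, and 2.53% of all genes tested were called with limma. An unadjusted p under 0.05 was found for 2 of the 13, against 12.4% of all genes tested. A count of 0 in so short a list does not set it apart from all genes. The 2 with the lowest fitted differences were Cxcl2 (-3.48, adjusted p = 0.0665) and Ccl4 (-1.69, adjusted p = 0.18, limma), both attractants of leukocytes. Ccl4 had 42.6 to 156 (median 91.1) normalized reads in OIR p14 and 11.8 to 60.5 (median 22.1) in OIR p17 mice and at most 2.74 in controls. Its OIR mice fell with age (log2 change -1.82, adjusted p = 0.00421, limma). Cxcl2 had 6.44 to 98.8 (median 36) and 0 to 16.3 (median 4.19) in OIR mice. The call for Cxcl2 was made in 4 of 16 other fits (lens genes, array weights, the within-group component and without OIR p17 mice S2 and S7).

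The 28 genes whose effect grew downward had a median difference of -0.71. At p14, 4 of them had passed as lower in OIR mice and 24 had not passed, with a median effect of 0.07. In 16 of the 28 the fitted effects at p14 and p17 had opposite signs. Etnppl encodes an astrocyte enzyme that breaks down phosphoethanolamine. In controls it had 14.2 to 56.9 (median 32.4) normalized reads at p14 and 152 to 319 (median 217) at p17, and in OIR mice 18.2 to 64.9 (median 28) at p14 and 3.3 to 92.4 (median 27.7) at p17. Controls at p17 lay above all other mice, and the change with age passed in controls (adjusted p = 0.00378) and not in OIR mice (adjusted p = 0.78, limma). The difference was -3.09 ± 0.68 (adjusted p = 0.00841, limma). Gsg1l2 also rose with age in controls, with no change that passed in OIR mice. Controls had 544 to 756 (median 636) normalized reads at p14 and 827 to 934 (median 901) at p17, against 389 to 511 (median 411) and 314 to 434 (median 395) in OIR mice. Gem, a small GTPase that acts on calcium channels, instead fell in OIR mice (effect 0.25 at p14 and -0.38 at p17, adjusted p of the difference = 0.00375, limma). Gpr62, an orphan G protein-coupled receptor, had 96.9 to 220.1 (median 169) normalized reads in OIR p17 mice, below all controls of that age (232 to 341, median 282).

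Of the 16 genes that faded from above, 13 were higher in OIR mice at p14, and 0 passed at p17 in either direction. The fitted effect at p17 was below 0 in 15 of the 16. Cirbp and Rbm3 encode the cold-inducible RNA-binding proteins, which cells raise at low temperature and under low oxygen. Cirbp had 15066 to 24129 (median 17894) normalized reads in OIR p14 mice, above all controls (9549 to 12216, median 10091), and 6527 to 13853 (median 9369) in OIR p17 mice, which overlapped controls (9362 to 14446, median 11654). Rbm3 had 2222 to 3961 (median 2611) in OIR p14 mice and 1352 to 2675 (median 1515) in OIR p17 mice, with 1490.3 to 1703 (median 1619.6) and 1503 to 2089 (median 1792) in controls. The differences were -1.10 ± 0.21 and -0.84 ± 0.20 (log2, adjusted p = 0.00226 and 0.0183, limma). Plpp2, a lipid phosphate phosphatase, and Glp2r, the receptor for glucagon-like peptide-2, also faded, with differences of -0.50 and -1.17.

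Of the 48 genes that faded from below, 43 were lower in OIR mice at p14, and at p17 2 were lower and 1 higher. The fitted effect at p17 was above 0 in 33 of the 48. Casq2, a calcium store protein of muscle that is also found in vessel wall cells, had 9.08 to 54.6 (median 26.4) normalized reads in OIR p14 mice, below all controls (87.9 to 185, median 123). At p17 it had 58.6 to 183 (median 119) in OIR mice and 105 to 176 (median 138) in controls. Its difference was 2.06 ± 0.41 (adjusted p = 0.00308, limma). Fxyd6, a regulator of the sodium pump in neurons, recovered from an effect of -0.77 to 0.20. Id3, an inhibitor of differentiation that responds to bone morphogenetic proteins, went from -0.65 to 0.33, and Slfn5, a gene of the interferon-linked schlafen family, from -1.38 to 0.47 (adjusted p of the differences = 0.00521 and 6.01e-04, limma). Fbln5, which encodes fibulin-5 of elastic fibres, and Plac9a differed by 1.28 and 1.32. Apoe, a lipid carrier made by Müller glia, had 13853 to 16989 (median 15546) normalized reads in OIR p14 mice, below all controls, and 15785 to 36504 (median 26208) at p17, and it lost its call in 5 of 16 other fits.

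The neuron and photoreceptor lists held at most 1 call in each direction, and 2.53% of all genes tested were called. With 15 to 21 genes in each list, these counts do not show fewer calls than over all genes. Of 20 rod genes 0, of 21 amacrine and horizontal cell genes 0 and of 16 ganglion cell genes 0 passed in either direction with limma, edgeR or DESeq2. Their median differences were 0.05, -0.04 and -0.04, and 0, 4 and 1 of them had an unadjusted p under 0.05. Of 15 cone genes, Arr3, cone arrestin, recovered, with 1522 to 3072 (median 1817) normalized reads in OIR p14 mice against 3034 to 4456 (median 3602) in controls, and 2813 to 5465 (median 3988) against 3579.5 to 4619 (median 4266) at p17 (difference 0.85, adjusted p = 0.0298, limma). The cone list also had 1 lower call, Ccdc136, a coiled-coil protein gene, with 4031 to 4926 (median 4675) normalized reads in OIR p14 mice against 3350.1 to 4426 (median 3682) in controls, and 4070.5 to 4724 (median 4368) against 4329 to 4793 (median 4651) at p17 (difference -0.35, adjusted p = 0.0384, limma). It lost its call in 7 of 16 other fits and in 16 of the 26 that left out a mouse. Of 16 bipolar cell genes, 3 were lower at p14 and 10 at p17, and the median difference was -0.24. Cabp5, a calcium-binding protein of bipolar cells, was the only one called (-0.51, adjusted p = 0.0445, limma), and it lost its call in 8 of 16 other fits. Oxidative phosphorylation genes had a median difference of 0.00057, 0 of 24 passed with any of the 3 tools, and 1 had an unadjusted p under 0.05.

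The other lists held at most 2 calls each, and 2.53% of all genes tested were called. The lists with 2 calls had a larger share than that. A count of 0 in a list of this size does not show fewer calls than over all genes. Müller glia genes had 1 higher (Apoe) and 1 lower (Etnppl) of 16, and genes of endoplasmic reticulum stress 2 higher (Trib3 and Xbp1) of 18. Interferon response genes had 2 higher of 18, namely Irf7, a regulator of interferon genes (1.17), and Ifitm3, an antiviral membrane protein (1.57). Genes of antigen presentation passed in 0 of 16 and of cholesterol synthesis in 0 of 20, with 5 and 2 at an unadjusted p under 0.05. With edgeR 0 of either list passed, and with DESeq2 2 antigen presentation genes did. Of retinal pigment epithelium genes 0 of 16 passed, and of 2 tested neutrophil and lymphocyte genes 0 passed, while 15 others of the 17 in the table fell below the level for testing. An unadjusted p under 0.05 was found for 3 of the pigment epithelium genes and for 0 of the neutrophil and lymphocyte, lens, and muscle and sclera genes, and edgeR and DESeq2 called 0 of these 4 lists.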

How the data were processed

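RNA of whole mouse retinas was sequenced by the authors with a low-input kit that does not mark strand, so a gene and an antisense partner cannot be told apart. Per the labels and the study's methods, reads were checked with FastQC 0.73, aligned with STAR 2.7.8a, counted per gene with featureCounts 2.0.1 and normalized with DESeq2 1.34 in R 4.0.3. The deposited signal values are gene counts divided by a size factor of each mouse, here called normalized reads. Whole reads could be recovered for 100% of values (tolerance 1e-06), with 17029536 to 33593428 reads per mouse. The deposited table also holds the authors' group means, and log2 fold changes and adjusted p-values that the authors computed with DESeq2 for each age. None of these columns was used, and 0 columns of other samples were left out. No 2 mice of a group agreed within sampling noise (lowest chi-square per degree of freedom 9.39).

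Values were taken as log2(normalized reads + 1), so fold changes of low genes are understated, and a gene entered the test if its mean over the 26 mice was 10 or more. A gene could thus enter through a group where it was high. Of the 366 genes that grew upward, 7 had a mean of 10 or more in only 1 group. One fit of all 4 groups was made with limma 3.58.1 (R 4.3.3, moderated with a mean trend), with Benjamini-Hochberg adjusted p-values over 19004 genes. Each SE and 95% interval is from this fit. Scripts were tested on simulated data. edgeR 4.0.16 and DESeq2 1.42.0 on the recovered reads, other scalings, filters and pseudocounts, covariates, a replicate block and leaving out each mouse were the alternatives. Counts and classes refer to an adjusted p of 0.05. The genes named were taken from the first by adjusted p in each class and list (up to 12 and 4), not all of which are printed, and genes that did not pass, and others outside this rule, were chosen after their values were seen. The contrast, the 34 gene lists and the members were chosen with earlier results of these data known. Promoter sequences of 12764 genes tested were matched by symbol to RefSeq (GRCm38.p6).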

Additional observations from a re-analysis of the deposited data

Results flagged for a closer look

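The OIR effect differed between p17 and p14 in 480 genes by the test of the difference itself (limma, adjusted p of 0.05), which is 2.53% of the genes tested. In 22 of them the effect also passed at each age with opposite signs, and the values below are the effect at p17 minus that at p14 on the log2 scale. The pericyte genes of this class differed by 3.48 (Higd1b), 3.15 (Ednra), 2.94 (Rgs5), 2.84 (Abcc9), 2.70 (Kcnj8) and 1.98 (Art3). The endothelial genes Tie1 and Cldn5 differed by 2.07 and 1.72. The stromal and signalling genes Aspn, Ccdc80, Tgfbr2 and Bambi, a decoy receptor for transforming growth factor beta, differed by 3.33, 3.13, 2.05 and 0.90. Transporter genes of the class were Slc40a1, which encodes the iron exporter ferroportin, with 1.07, and Slc38a11, with 2.86. Coro1a, an actin-binding protein of leukocytes, differed by 0.75. The others were Tlr12 (6.64, at low counts), Arhgef39 (2.17), Naalad2 (2.15), AU021092 (1.95), Rflnb (1.79), Rassf3 (1.12) and Dcdc2a (-0.92).

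Single mice lay far from the rest of their group in 21 of 484 groups of values (4.34%), where chance gives about 1 in 20. In normalized reads, mice of nOIR p14 that stood apart were S3 for Apln (483), S1 for Col4a2 (2719), S5 for Trib3 (268) and S2 for Coro1a (449). In nOIR p17 they were S3 for Col3a1 (92.2) and Cxcl2 (5.76), S5 for Eng (463) and Rassf3 (337) and S1 for Glp2r (2058). In OIR p14 they were S5 for Cck (112), S4 for Dcdc2a (481), S1 for Gpr62 (209) and Pdgfb (86.5), and S3 for Esm1, Igfbp3 and Cxcr4 (18.2, 613 and 14.1). In OIR p17 they were S4 for Col4a1 (7585) and Dll4 (210.4), S1 for Gfap (2164) and S2 for Mrc1 (13.6). OIR p17 mouse S1 also had the fewest recovered reads, 17029500.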

How the results depend on the processing

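No called difference named above changed sign under any alternative. Differences that did not pass did so in some. Atp13a5 had -0.0979 with the replicate block, -0.19 with array weights, -0.11 without OIR p17 mice S1 and S8 and -0.0472 without S2 and S7. Cck had -0.15 with the block, Slco1a4 -0.073 and -0.0298 without S1 and S8 and without S2 and S7, Gadd45b 0.12 without S1 and S8, and Edn2 -0.26 with a pseudocount of 0.1 and -0.0758 with array weights. Of the lens genes, Cryaa (-0.08 as reported) had 0.86 with nOIR p14 mouse S4 included, 0.0032 with quantile normalization, 2.18 with edgeR, 2.18 with DESeq2 and 0.22 without S1 and S8, and Cryba1 (0.16 as reported) -0.70 with the block and -0.72 without S2 and S7. With each mouse left out, the differences ran from -0.048 to 0.58 for Atp13a5, -0.0917 to 0.26 for Slco1a4, -0.35 to 0.54 for Edn2, -0.39 to 0.0443 for Gadd45b, -0.11 to 0.27 for Nupr1, -1.43 to 1.12 for Cryaa and -1.06 to 1.15 for Cryba1. Median differences of lists with 0 calls also crossed 0, from -0.18 to 0.32 for gliosis, -0.04 to 0.08 for rods, -0.11 to 0.00076 for amacrine and horizontal cells and -0.14 to 0.06 for oxidative phosphorylation.

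Mouse numbers recur across groups. The 34 pairs of same-numbered mice had correlations of their deviations between -0.233 and 0.330 (median 0.014), with 7 over 0.1. The highest were those of nOIR p14 mouse S1 with S1 of OIR p17 (0.330) and of nOIR p17 (0.317). Of 25 mice, 7 correlated best with their own number, and the count that chance gives was not computed. These values do not settle whether the numbers mark pairs, and the main fit did not take them as pairs. With the number as a replicate block, 272 genes were higher and 17 lower at p17, in place of 435 and 45. Under that block 236 grew upward, 11 downward, 5 faded from above and 18 from below, and the change passed in OIR mice alone for 255 genes. The genes named above that lost their calls under the block were Apoe, Arr3, Birc5, Cabp5, Ccdc136, Cd68, Cxcr4, Dll4, Esm1, Fbln5, Gpr62, Hbb-bs, Ifitm3, Itm2a, Kif23, Rbm3, Trib3, Vegfa and Xbp1, and called immediate early genes went from 5 to 3 and endoplasmic reticulum stress genes from 2 to 0.

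DESeq2 gave 84 lower, 48 grown downward and 32 faded from above. With array weights the counts were 120 lower, 80 grown downward, 34 and 89 faded from above and below and 51 changed in sign. At an adjusted p of 0.01 there were 228 higher, 9 lower, 200 grown upward, 6 grown downward, 2 and 16 faded from above and below and 13 changed in sign. With every gene above 0 tested, 29 faded from below. The share of higher calls, 90.6%, was 82.6% with array weights and 78.5% with the leading within-group component (17.1% of the variance within groups, with OIR p17 mice S1 and S8 at its ends) as a covariate, a fit chosen after seeing the data. That fit gave 171 lower, 116 grown downward, 46 and 81 faded from above and below, 48 changed in sign, and 658 with a change in OIR mice alone. Without OIR p17 mice S1 and S8, also chosen after seeing the data, 401 were higher and 52 lower. Without OIR p17 mice S2 and S7, chosen likewise, 338 were higher, 27 lower, 16 grown downward and 10 faded from above, and Apoe, Arr3, Birc5, Cabp5, Ccdc136, Esm1, Fbln5, Hbb-bs, Hspg2, Junb, Rbm3 and Trib3 lost their calls. Counting only differences over 1 in size gave 14 lower, 9 grown downward and 5 and 17 faded from above and below. The cause of these shifts was not tested.

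With each mouse left out in turn, counts ran from 347 to 501 (higher), 29 to 66 (lower), 289 to 424 (grew upward), 17 to 45 (grew downward), 9 to 19 (faded from above), 34 to 53 (faded from below), 18 to 34 (changed sign), 6 to 11 (steady) and 326 to 494 (change in OIR mice alone). The 45 grown downward came without OIR p17 mouse S1, the 34 changed in sign without OIR p14 mouse S4, the 29 lower without nOIR p17 mouse S2 or OIR p14 mouse S6, the 17 grown downward without nOIR p17 mouse S4 or S6, and the 9 faded from above without nOIR p17 mouse S1 or S2. Calls for Apoe, Arr3, Birc5, Cabp5, Ccdc136, Cd68, Cxcr4, Esm1, Hbb-bs, Hspg2, Ifitm3, Pdgfb and Trib3 were lost without at least 1 of the mice, and edgeR did not call Cabp5, Cdc6, Esm1, Kif23 and Pf4. Low genes such as Tlr12, Esm1 and Cxcl2 are limited by depth.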

Other observations

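Other members of the lists that passed the difference include signals between endothelium and its neighbours. Dll4, the Notch ligand of tip cells, differed by 1.17 (log2), and Pdgfb, the endothelial factor that recruits pericytes, by 1.32. Cxcr4, a chemokine receptor of tip cells, differed by 1.82. The calls for Pdgfb and Cxcr4 (adjusted p = 0.0417 and 0.0407, limma) were lost in 4 and 6 of 16 other fits and in 17 and 15 of the 26 fits that left out a mouse. Robo4, a guidance receptor of endothelium, differed by 1.93 (adjusted p = 2.00e-04, limma) and kept its call in all of these fits. Vwf, von Willebrand factor of endothelium, had an effect of -0.03 at p14 and 1.78 at p17. Postn encodes periostin, a matrix protein of remodelling tissue, and differed by 1.55, while Hspg2, the basement membrane proteoglycan perlecan, differed by 1.36. Among mitosis genes, Birc5, which encodes survivin, differed by 1.56 and Kif23, a kinesin of cell division, by 3.04. These all had a higher effect at p17.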
